A study of Ursus arctos with 12 samples.

Results

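The genes described here encode subunits of succinate dehydrogenase (complex II) and of ATP synthase (complex V), enzymes of oxidative phosphorylation in the inner mitochondrial membrane. They were taken by gene symbol from the table of read counts, together with the inhibitor of ATP synthase, and had to reach 30 reads summed over the 12 libraries. The symbols gave 22 genes of the 30249 in the table, 4 of complex II and 18 of complex V, and 0 of them fell below the 30 reads. Subunits of complexes III and IV and cytochrome c were not analysed here. The libraries came from the vastus lateralis, a thigh muscle, of 6 free-ranging Swedish brown bears (Ursus arctos) aged 2 to 3 years. Each bear was biopsied during winter hibernation and again in its active period in summer of the same year, which gave 6 libraries a season and pairs the seasons by animal. Capture and biopsy under anaesthesia were common to both seasons.

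Succinate dehydrogenase oxidises succinate to fumarate as a step of the citric acid cycle and passes the electrons to coenzyme Q, without pumping protons. ATP synthase lets protons flow back into the matrix through a ring of c subunits, and the turning of this ring drives the F1 head, where ADP and phosphate become ATP. A peripheral stalk holds the head still against the ring, and small membrane subunits join the enzymes in pairs and help to bend the cristae. In skeletal muscle these enzymes set much of the capacity for aerobic ATP production.

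The libraries held 16742406 to 32140160 reads and the 22 genes 681 to 84466 reads in each, so that counting error was small beside the differences between bears. Levels are given as CPM, read counts scaled to library size with TMM, which are not levels per length, so the levels of different genes are not compared. In a principal component analysis the winter library of bear 1509 lay at −98.6 on the second component and the other 11 libraries at −8.16 to 29.4. Results that moved without this bear are given with their value. Markers of muscle fibres summed to 93204 to 164293 CPM in summer and 103809 to 143424 in winter, overlapping ranges. Much of the sum was CKM, at a mean of 66969 CPM in summer and 68367 in winter. At an adjusted p below 0.05, 1 of the 8 was higher, TTN (mean 19266 and 30180 CPM). Lower were 2, ACTA1 (19732 and 10556 CPM) and TCAP (2066 and 692 CPM), so the sum hides opposite changes. Of 7 listed slow fibre markers 5 were tested, without MYH7 and TPM3. They summed to 9991 to 20451 CPM in summer and 11707 to 18458 in winter, with 0 of 5 below either an adjusted or a raw p of 0.05 in edgeR. Of 10 listed fast fibre markers 6 were tested, without MYH1, MYH2, MYH4 and MYL1. They summed to 31009 to 65996 and 37059 to 46177 CPM, with 2 of 6 lower. Fibroblast markers summed to 4248 to 11437 CPM in summer and 286 to 1708 in winter (7 of 8 lower), endothelial markers to 638 to 966 and 428 to 496 (6 of 8 lower, 1 higher), and smooth muscle markers to 406 to 523 and 176 to 286 (4 of 6 lower). Leukocyte markers summed to 58.1 to 109 and 41.1 to 70.1 CPM (6 of 8 lower) and adipocyte markers to 313 to 1538 and 223 to 484 (3 of 8 lower). The erythroid markers tested, 3 of 7 listed, summed to 3.17 to 65.7 and 34.4 to 56.8 CPM (0 of 3 below either p). The markers of B cells and T cells, CD79A and CD3E, lay at a mean of 0.536 and 0.553 CPM in summer and 0.208 and 0.197 in winter, and LEP, a marker of adipocytes, at 0.0468 and 0.371. Of all genes tested, 21.2% were called lower and 19.6% higher at the same limit. The shares called lower were 25% for the muscle fibre markers and 33.3% for the fast fibre markers, the first near that of all genes. The part of the other cell types in the results below was not tested.

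The log2 fold change of winter against summer (log2FC, where FC is winter over summer) came from edgeR's quasi-likelihood test with the bear as a block, fitted on 17290 genes and adjusted over all of them by Benjamini-Hochberg, and a gene was called at an adjusted p below 0.05. Transcripts of the 2 enzymes were less abundant in hibernation. Of the 22 genes, 14 were lower in winter (63.6%), where 21.2% of all genes tested were called lower and 40.8% in either direction. In edgeR 0 were higher, against 19.6% of all genes, with 1 higher at an unadjusted p below 0.05, 1 in DESeq2 with the bear as a block, 0 in DESeq2 without it and 0 in limma voom. The median log2FC was −0.53, beside −0.01 over all genes tested. At the stricter limits used for DEGs in the study (adjusted p under 0.01, FC under 0.77), 10 of the 22 passed (13.4% of all genes) and 0 passed on the higher side with FC above 1.3 (12.2%). The 10 became 6 without bear 1305, while the 14 called genes numbered 10 to 14 with any 1 bear left out and 12 without bear 1509. In 5 of the 22 all winter libraries lay below all summer libraries (8.21% of all genes) and in 0 above them (9.12%), and 11 were lower in 6 of 6 bears (19% of all genes). Together the 22 genes took 1.55 to 1.68% of the reads of a summer library and 0.796 to 1.44% of a winter library. These shares of raw reads did not overlap. Their sums in CPM, scaled with TMM, were 14387 to 17026 in summer and 8624 to 14914 in winter, ranges that overlap. Within bears the summed CPM of the 22 genes in winter was 0.599 to 0.938 times that in summer (median 0.727), and lower in 6 of 6. Fewer cells of a type and less RNA per cell cannot be told apart in such bulk samples.

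**Figure D1:**
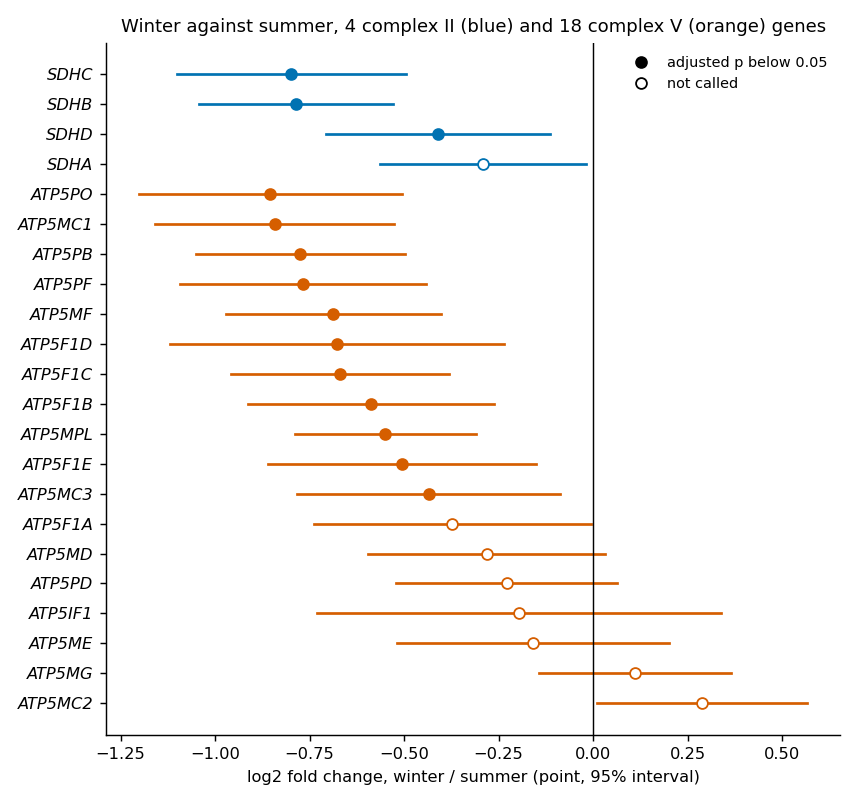
Log2 fold change of winter against summer with its 95% interval for the 4 complex II genes (blue) and 18 complex V genes (orange), from edgeR with the bear as a block. The intervals are unadjusted, and filled points have an adjusted p below 0.05, so an open point can have an interval off 0. The 14 filled points all lie left of 0, and only ATP5MG and ATP5MC2 have a positive estimate, neither of them called.

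In complex II, 3 of the 4 genes were lower in winter, with a median log2FC of −0.60 and estimates from −0.80 to −0.29. SDHB carries the iron-sulfur clusters that lead electrons from the flavin to coenzyme Q. In bears 1305, 1316, 1317, 1509, 1511 and 1512, in this order here and below, it lay at 294, 341, 238, 323, 315 and 264 CPM in summer and 148, 171, 141, 163, 231 and 180.3 in winter. Each winter library was below each summer library, with a log2FC of −0.79 ± 0.12 (SE; FC = 0.58, adjusted p = 0.000481). SDHC, the larger of the 2 membrane anchors that hold heme and the site of coenzyme Q, lay at 793, 716, 704, 744, 721 and 824 CPM in summer and 399, 355, 319, 592, 516 and 463 in winter. Its seasons did not overlap either, with a log2FC of −0.80 ± 0.14 (SE; FC = 0.58, adjusted p = 0.00115). The smallest fall was in bear 1509, whose winter level was the highest of the season.

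SDHD, the smaller anchor, lay at 459, 465, 433, 454, 419.7 and 544 CPM in summer and 387, 276, 247, 453, 372 and 393 in winter. The seasons overlapped, since bear 1509 had nearly the same level in both, with a difference near 0, and the other 5 bears were lower by more. It was called at a log2FC of −0.41 ± 0.13 (SE; FC = 0.75, adjusted p = 0.0315), but its adjusted p was 0.0521, 0.0931, 0.0786 and 0.0834 without bear 1305, 1316, 1317 or 1512. SDHA, the flavoprotein that holds the catalytic site for succinate, lay at 408, 541, 518, 504, 529 and 472 CPM in summer and 374, 433, 345, 329.7, 536 and 433 in winter. It was lower in 5 of 6 bears and its seasons overlapped, with bear 1511 as high in winter as in summer. SDHA was not called, at a log2FC of −0.29 ± 0.12 (SE; FC = 0.82, adjusted p = 0.0814), with an unadjusted 95% interval of −0.56 to −0.02. The genes with separate seasons, SDHB and SDHC, thus come from the catalytic part and from the membrane anchor.

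**Figure D2:**
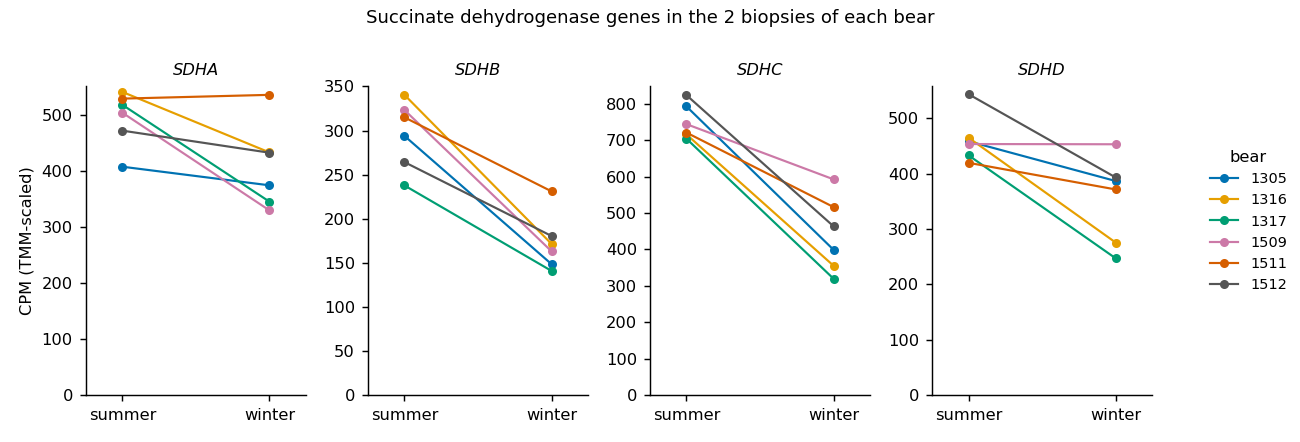
Level of SDHA, SDHB, SDHC and SDHD in CPM in the summer and winter biopsy of each of the 6 bears, with 1 line per bear. All lines of SDHB and SDHC fall and their seasons do not overlap, while bear 1511 holds its SDHA level and bear 1509 its SDHD level.

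In complex V, 11 of the 18 genes were lower and 7 were not called, with a median log2FC of −0.53 and estimates from −0.85 (ATP5PO) to 0.29 (ATP5MC2). All 5 genes of the F1 head had negative estimates and 4 were called lower (80%, beside 21.2% of all genes). ATP5F1B, the β subunit with the catalytic sites, lay at 2621, 2961, 3209, 2809, 3059 and 3107 CPM in summer and 1815, 1714, 1498, 2267, 2654 and 2055 in winter. It was lower in 6 of 6 bears, with a log2FC of −0.59 ± 0.15 (SE; FC = 0.67, adjusted p = 0.00893). Its seasons overlapped only in that the winter library of bear 1511 stood just above the summer library of bear 1305. ATP5F1A, the α subunit that alternates with β around the head, lay at 2584, 2924, 2884, 2999.9, 2885 and 2960.4 CPM in summer and 1994, 2019, 1339.8, 2525, 3143 and 2750.3 in winter. The summer libraries other than that of bear 1305 were close together and the winter libraries spread widely, from 1340 CPM in bear 1317 to 3143 in bear 1511. ATP5F1A was lower in 5 of 6 bears and not called, at a log2FC of −0.37 ± 0.17 (SE; FC = 0.77, adjusted p = 0.0964), with an unadjusted 95% interval of −0.74 to −0.01. DESeq2 with the bear as a block gave it an adjusted p of 0.0474.

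ATP5F1C, the γ subunit that forms the turning shaft, was at 896 ± 72.6 CPM in the active season against 574 ± 128 CPM in hibernation (mean ± SD of 6 bears). All its winter libraries lay below all its summer libraries, with a log2FC of −0.67 ± 0.13 (SE; FC = 0.63, adjusted p = 0.00236). The small subunits δ and ε, encoded by ATP5F1D and ATP5F1E, join the shaft to the ring. ATP5F1D had the fewest reads of the 22 genes and was at 104 ± 31.4 CPM in the active season against 66.5 ± 25.6 CPM in hibernation (mean ± SD of 6 bears), with a log2FC of −0.68 ± 0.20 (SE; FC = 0.63, adjusted p = 0.0199). Its differences on the log2 scale were uneven, at −1.45 and −1.48 in bears 1316 and 1509 and from −0.44 to 0.05 in the other 4, and its adjusted p was 0.059 without bear 1316. ATP5F1E was at 432 ± 118 CPM in the active season against 298 ± 60 CPM in hibernation (mean ± SD of 6 bears), a log2FC of −0.51 (adjusted p = 0.0273), and was higher in winter in bear 1317. It was not called without bear 1305, 1316, 1509 or 1512 (adjusted p = 0.0868, 0.0761, 0.0742 and 0.0513).

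The peripheral stalk held 3 of the 4 largest falls of the enzyme, each seen in 6 of 6 bears, and 1 gene that was not called. ATP5PO encodes OSCP, the subunit that ties the stalk to the top of the F1 head. It lay at 585, 595, 496, 560.3, 537 and 679 CPM in summer and 355, 209, 227, 400.4, 422 and 354 in winter. The seasons did not overlap, and the widest gap was in bear 1316, with a log2FC of −0.85 ± 0.16 (SE; FC = 0.55, adjusted p = 0.00171) over the 6 bears. ATP5PB, subunit b and the long helix of the stalk, lay at 908, 978, 986, 1046, 811 and 1046 CPM in summer and 537, 486, 463, 741, 575 and 601 in winter. Every winter library was again below every summer library, with a log2FC of −0.78 ± 0.13 (SE; FC = 0.58, adjusted p = 0.000833). ATP5PF, coupling factor F6, was at 301 ± 34.1 CPM in the active season against 181 ± 47.1 CPM in hibernation (mean ± SD of 6 bears), a log2FC of −0.77 (adjusted p = 0.00221). Its difference in bear 1509, −0.11 on the log2 scale, was smaller than the −1.22 to −0.53 of the other bears. ATP5PD, subunit d, was the exception, at 802 ± 99.9 CPM in the active season against 689 ± 117 CPM in hibernation (mean ± SD of 6 bears) and lower in 4 of 6. Its log2FC of −0.23 (SE 0.13, adjusted p = 0.193) was not called, with a 95% interval of −0.52 to 0.06.

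**Figure D3:**
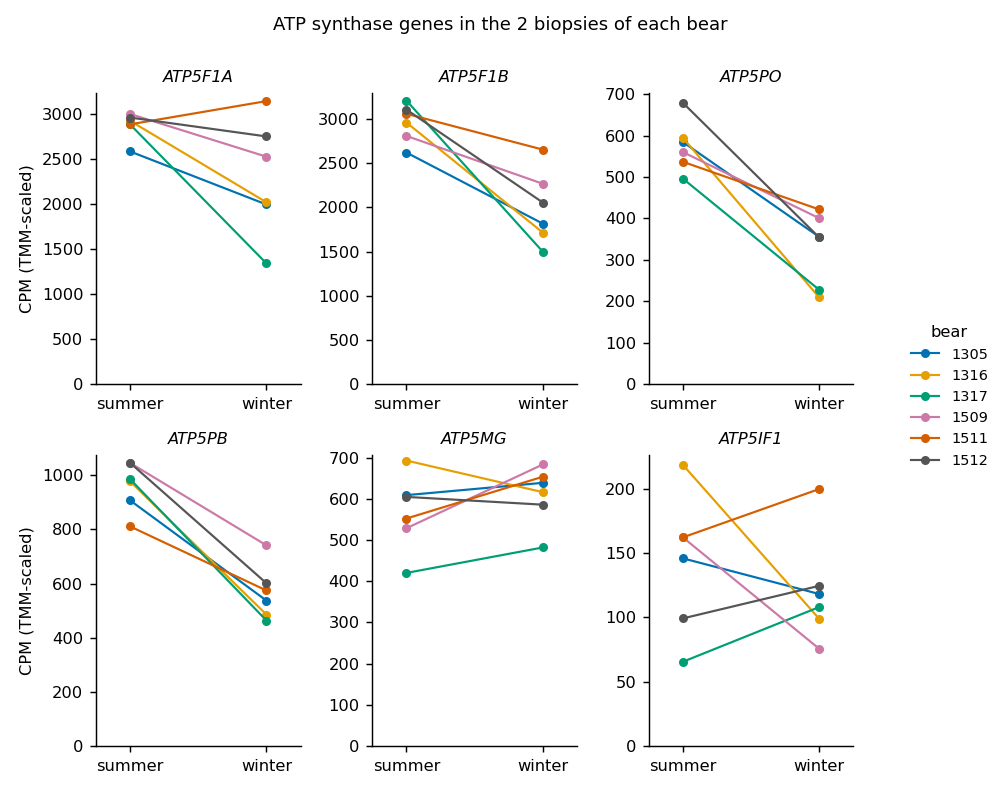
Level in CPM in the summer and winter biopsy of each bear for 2 subunits of the F1 head (ATP5F1A, ATP5F1B), 2 of the peripheral stalk (ATP5PO, ATP5PB), the membrane subunit ATP5MG and the inhibitor ATP5IF1, with 1 line per bear. The stalk genes fall in all 6 bears with separate seasons, ATP5MG stays in 1 range and the lines of ATP5IF1 cross.

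The c ring is encoded by 3 genes, ATP5MC1, ATP5MC2 and ATP5MC3, whose products differ in the targeting peptide and give the same mature c subunit. Since their coding sequences are related and processed copies of them are common in mammalian genomes, reads could be shared between copies and the counts are to that degree uncertain. ATP5MC1 lay at 873, 955, 745, 949.7, 987 and 984 CPM in summer and 462, 446, 324, 640.5, 811 and 499 in winter. It was lower in 6 of 6 bears, with a log2FC of −0.84 ± 0.14 (SE; FC = 0.56, adjusted p = 0.00108), and the seasons overlapped only through bear 1511 in winter and bear 1317 in summer. ATP5MC2 lay at 617, 712, 438, 501, 574 and 683 CPM in summer and 645, 805, 681, 557, 877 and 723 in winter. It had the highest estimate of the 22 genes and was higher in 6 of 6 bears, but the ranges overlapped and it was not called, at a log2FC of 0.29 ± 0.13 (SE; FC = 1.22, adjusted p = 0.0917). DESeq2 with the bear as a block called it, with an adjusted p of 0.0467. ATP5MC3 lay at 429, 548, 353, 456, 466 and 323 CPM in summer and 288, 269, 232, 306, 478 and 355 in winter. It was lower in 4 of 6 bears and only just called, at a log2FC of −0.44 ± 0.16 (SE; FC = 0.74, adjusted p = 0.047). ATP5MC3 was not called in 8 of 16 other settings. These were edgeR without the block (adjusted p = 0.0708), DESeq2 without it (adjusted p = 0.0559) and upper quartile scaling (adjusted p = 0.0623). The others were the fits without bear 1305, 1316, 1317 or 1509 (adjusted p = 0.112, 0.136, 0.0994 and 0.0936) and that without both the block and bear 1509 (adjusted p = 0.166).

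The shares of ATP5MC1 and ATP5MC2 in the c-ring reads differed between the 2 seasons, while those of ATP5MC3 overlapped. ATP5MC1 supplied 45.5, 43.1, 48.5, 49.8, 48.7 and 49.4% in summer and 33.1, 29.3, 26.2, 42.6, 37.4 and 31.6% in winter. ATP5MC2 supplied 32.1, 32.1, 28.5, 26.3, 28.3 and 34.3% in summer and 46.2, 53, 55.1, 37.1, 40.5 and 45.9% in winter. The share of ATP5MC1 was lower, and that of ATP5MC2 higher, in winter in 6 of 6 bears, with no overlap between seasons for either gene. ATP5MC3 supplied 16.2 to 24.7% in summer and 17.7 to 22.5% in winter. The ratio of ATP5MC1 to ATP5MC2 was 1.34 to 1.9 in summer and 0.476 to 1.15 in winter, and since it was singled out after its values were seen it was not tested. The 2 ratios to ATP5MC3 that had been listed were tested over bears, and an exact two-sided sign-flip permutation test over 6 bears cannot give less than p = 0.0312. The log2 ratio of ATP5MC2 to ATP5MC3 was 0.45 ± 0.33 in the active season and 1.18 ± 0.32 in hibernation (mean ± SD of 6 bears), a mean difference of 0.72 that was positive in 5 of 6 bears (exact permutation p = 0.0625, 0.0625 adjusted over the 2 ratios). That of ATP5MC1 to ATP5MC3 was 1.11 ± 0.27 and 0.70 ± 0.21, a mean difference of −0.41 that was negative in 5 of 6 (exact permutation p = 0.0625, adjusted 0.0625). Neither ratio passed the threshold. With the libraries treated as unpaired, the exact permutation test gave an adjusted p of 0.0108 for both. The summed level of the 3 genes in winter was 0.686 to 1.07 times that in summer and lower in 5 of 6 bears, with overlapping ranges of 1536 to 2215 and 1237 to 2166 CPM.

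**Figure D4:**
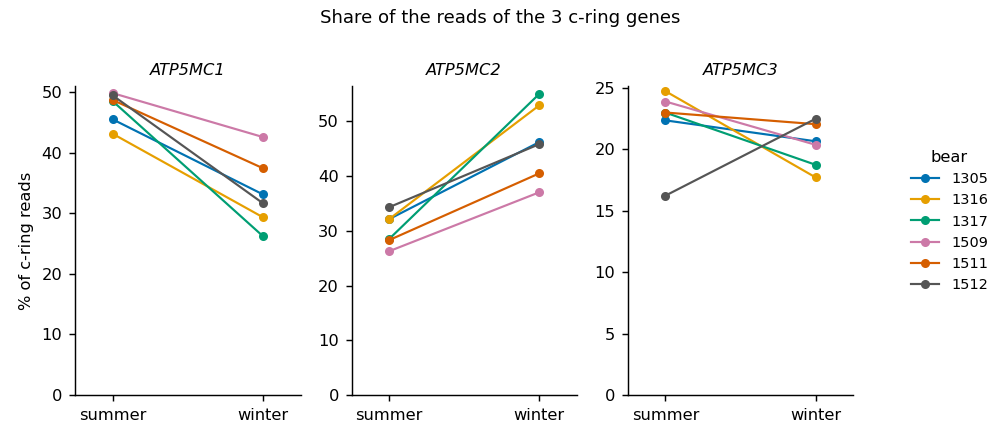
Share of the reads of the 3 c-ring genes, in %, that came from ATP5MC1, ATP5MC2 and ATP5MC3 in the summer and winter biopsy of each bear, with 1 line per bear. In all 6 bears the share of ATP5MC1 falls and that of ATP5MC2 rises, with no overlap between the seasons.

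Of the 5 small membrane subunits, 2 were lower in winter (40%, beside 21.2% of all genes) and 3 were not called. ATP5MF, subunit f, was at 279.8 ± 37.8 CPM in the active season against 176 ± 37.9 CPM in hibernation (mean ± SD of 6 bears), with a log2FC of −0.69 ± 0.13 (SE; FC = 0.62, adjusted p = 0.00186). ATP5MPL, the 6.8 kDa proteolipid, was at 395 ± 52.9 CPM in the active season against 269.7 ± 36.3 CPM in hibernation (mean ± SD of 6 bears), with a log2FC of −0.55 ± 0.11 (SE; FC = 0.68, adjusted p = 0.0025). They fell in all 6 bears, with ranges that overlapped between seasons. Subunits e and g pair up where the enzymes form dimers. ATP5ME, subunit e, was at 349 ± 89.9 CPM in the active season against 307 ± 59.5 CPM in hibernation (mean ± SD of 6 bears). It gave a log2FC of −0.16 (adjusted p = 0.462, 95% interval −0.52 to 0.20), with single bears from −0.76 to 0.52. ATP5MG, subunit g, lay at 609, 693, 420.3, 529, 552 and 605 CPM in summer and 639, 616, 482, 684, 654 and 586 in winter, higher in 4 of 6 bears, and its log2FC of 0.11 (adjusted p = 0.467) had a 95% interval of −0.14 to 0.37. ATP5MD, known as DAPIT, was at 280.0 ± 40.4 CPM in the active season against 234 ± 56.6 CPM in hibernation (mean ± SD of 6 bears). Its log2FC was −0.28 (adjusted p = 0.137, 95% interval −0.60 to 0.03) and was lower in 4 of 6.

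ATP5IF1 is not a subunit but the small protein that blocks the enzyme from hydrolysing ATP when the membrane potential is lost. It lay at 146, 219, 65.4, 162, 162 and 99.1 CPM in summer and 118, 98.8, 108, 75.5, 199.7 and 124 in winter. This was the widest spread of the differences between bears, from −1.15 to 0.72 on the log2 scale with 3 bears lower and 3 higher. Its log2FC of −0.20 (SE 0.24, adjusted p = 0.541) had a 95% interval of −0.73 to 0.34.

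The 6 bears shared the direction of the median difference but not its size. The median of the 22 within-bear differences in log2 CPM was −0.96 in bear 1316, −0.68 in bear 1317 and −0.54 in bear 1305. It was −0.44 in bear 1512, −0.43 in bear 1509 and −0.19 in bear 1511. The medians over all genes were −0.03 to 0.01, but the TMM scaling itself holds these near 0. They therefore do not show whether the spread between bears is particular to the 22 genes. By complex, the medians of single bears ran from −0.87 to −0.31 in complex II and from −0.97 to −0.09 in complex V. Bear 1511 had the smallest fall in both. Over all genes its winter library was also the nearest to the summer libraries on the first principal component. The median fall of the listed complex I subunits was likewise largest in bear 1316 (−0.92) and smallest in bear 1511 (−0.15). The coenzyme Q genes described below had medians of −0.76 and −0.14 in these 2 bears, also the extremes of their list. In bear 1316, 21 of the 22 genes were lower in winter, and in bear 1511 12 of the 22. The winter library of bear 1511 was the highest of its season for 14 of the genes and that of bear 1317 the lowest for 15. The summer library of bear 1317 was also the lowest of its season, for 16 genes, and the depth of this gap differed between genes. Against the summer mean in log2 CPM it lay at −1.02 for ATP5IF1, −0.87 for ATP5ME, −0.85 for ATP5F1E and −0.43 for ATP5F1D, but at 0.01 for ATP5F1A, 0.12 for ATP5F1B and 0.04 for ATP5PB, genes singled out after their values were seen. The winter library of bear 1509 differed between the same genes, at −0.61, −0.33, −0.30 and −0.74 against 0.19, 0.21 and 0.40. The within-bear differences of ATP5IF1 and ATP5ME were positive in bear 1317 and negative in bear 1509. What set these libraries apart was not tested.

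**Figure D5:**
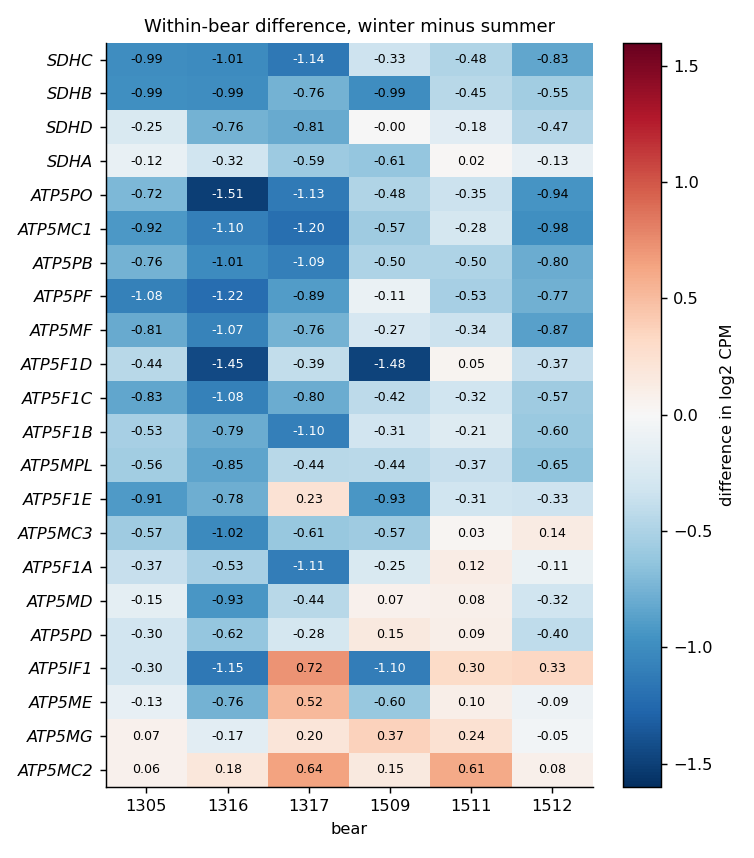
Difference in log2 CPM between the winter and the summer biopsy of each of the 6 bears (columns) for the 22 genes (rows, complex II above complex V), with blue for lower and red for higher in winter and the value in each cell. Bear 1316 is lower for 21 of 22 genes and bear 1511 for 12. Near the bottom, the rows of ATP5IF1, ATP5ME and ATP5MG differ in sign between bears, and ATP5MC2, the bottom row, is higher in all 6.

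Of the 4 assembly factors of complex II, 1 was lower and 1 higher, shares near the 21.2% and 19.6% of all genes called lower and higher. SDHAF2, which attaches the flavin to SDHA, was lower at a log2FC of −0.33 (adjusted p = 0.0442, lower in 6 of 6 bears), and was not called without the block or without bear 1305, 1316, 1317 or 1512. SDHAF4, which helps to join SDHA to SDHB, was higher at 0.46 (adjusted p = 0.00594, higher in 6 of 6). Of 10 listed factors that assemble ATP synthase or insert its membrane subunits, 6 were tested. Of these 3 were lower and 2 higher, beside the same 21.2% and 19.6% of all genes. ATPAF1 and ATPAF2, the chaperones of the β and α subunits, fell by 0.65 (adjusted p = 0.00688) and by 0.72 (adjusted p = 0.00557) on the log2 scale, in 5 and 6 of 6 bears. FMC1, which is needed for assembly of the F1 head, rose by 0.57 (adjusted p = 0.00759), and OXA1L, the insertase of the inner membrane, rose by 0.48 (adjusted p = 0.00914), each in 6 of 6 bears. The third factor called lower was TMEM242, at −0.41 (adjusted p = 0.0124, lower in 6 of 6 bears). The chaperones and TMEM242 moved in the direction of most subunits, and FMC1 and OXA1L in the other.

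Coenzyme Q carries the electrons away from complex II. Of the 13 genes tested of its synthesis and handling, 8 were lower (61.5%, beside 21.2% of all genes) and 0 higher in edgeR (raw p below 0.05 in 10 and 0, 0 higher in DESeq2 and limma voom), with a median log2FC of −0.46. COQ10A, which binds coenzyme Q, fell by 1.16 (adjusted p = 0.000251) and COQ3, a methyltransferase of its synthesis, fell by 1.10 (adjusted p = 0.000385) on the log2 scale, and each did so in every bear. For complex IV, 11 of 32 listed symbols of assembly factors were tested. Of these 2 were lower (18.2%, beside 21.2% of all genes), CMC2 at −0.75 (adjusted p = 0.00123) and APOPT1 at −0.49 (adjusted p = 0.0185), and 4 were higher (beside 19.6% of all genes), led by CMC1 at 0.71 (adjusted p = 0.0013) and PET117 at 0.67 (adjusted p = 0.024). Without bear 1316 only 1 of these factors was lower and APOPT1 was not called, and PET117 was not called without bear 1305, 1316, 1317 or 1512. Of 6 listed factors of complex III, 2 were tested and 0 were called in edgeR (raw p below 0.05 in 0, and 0 in DESeq2 and limma voom). Of the 37 listed subunits of complex I, the entry of electrons from NADH, 22 were lower and 0 higher in edgeR, with a median of −0.47. Raw p was below 0.05 in 24 lower and 0 higher, and 0 were higher in DESeq2 and limma voom. The largest falls in this list were those of NDUFA10, at −1.15 (adjusted p = 0.000197), and NDUFB2, at −1.09 (adjusted p = 0.00311), each lower in 6 of 6 bears. Called lower were 59.5% of the listed complex I subunits, 75% in complex II and 61.1% in complex V, against 21.2% of all genes. No difference between the complexes was tested.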

How the data were processed

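Muscle libraries of 6 brown bears, 1 from summer and 1 from winter per bear, were analysed. The authors aligned stranded single-end reads to ASM358476v1 with TopHat 2.1.1 and deposited the counts per gene from featureCounts 1.6.2, counted by strand, without normalization or a filter. Depth was 16742406 to 32140160 reads, which makes counting error small for these genes. Sequencing lanes are not assigned to libraries, so a lane effect was not tested.

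Genes had to reach 30 reads summed over the 12 libraries, as in the study, which 17290 did. Counts were scaled by TMM and fitted in edgeR 4.0.16 (R 4.3.3) with glmQLFit and glmQLFTest, with season and the bear as terms. The standard error is the log2FC divided by the square root of the test statistic F. Log2 CPM used a prior count of 2. The bear was a block because the methods of the study describe paired biopsies of each animal, while they give no design formula for DESeq2. Deviations of paired libraries correlated over all genes at 0.0903 to 0.344 (median 0.237), and those of different bears at −0.214 to 0.142 (median −0.0634), so the ranges overlap. Over the 22 genes alone the values were −0.535 to 0.786 (median 0.0863) and −0.849 to 0.681 (median 0.00282). The block therefore rests on the sampling of the same animals and not on these correlations. Fits were tested on simulated data.

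Alternatives were edgeR without the block, DESeq2 1.42.0, limma voom (limma 3.58.1), other scalings and filters, and each bear left out. The genes, lists and tests were chosen with earlier results of these data known. Values in every library were given for the 3 called genes of each enzyme with the largest change in size, the gene of each enzyme that changed most against the majority and the c-ring genes, and for each list the 2 largest called rises and falls. Genes outside this rule (SDHA, ATP5F1A, ATP5F1B, ATP5MG and ATP5IF1 among those with all values) were chosen after their values were seen. Of the isoform pairs listed, 2 were analysed. Subunits encoded in mitochondrial DNA were not analysed here.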

Additional observations from a re-analysis of the deposited data

Results flagged for a closer look

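Within a season of 6 libraries, 3 of 44 sets of values held a library whose gap to the nearest of the others, divided by the range, was above 0.625, and chance gives about 1 in 20. ATP5F1A lay at 11.34 log2 CPM in the summer library of bear 1305, with the other summer libraries at 11.49 to 11.55. In the summer library of bear 1317, ATP5ME lay at 7.53 log2 CPM against 8.43 to 8.84 in the others, and ATP5MPL at 8.18 against 8.63 to 8.77.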

How the results depend on the processing

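Bears give the replicates, so the spread between 6 animals, and not depth, limits these values, and the lane of each library could not be modelled. No gene of complexes II and V changed sign under any of 16 other settings. The number lower in winter ran from 10 (adjusted p below 0.01, or without bear 1316) to 15 (DESeq2 with the block), with medians from −0.61 to −0.47. Without the replicate block, 13 were lower, the c-ring ratios of −0.41 (ATP5MC1 over ATP5MC3) and 0.72 (ATP5MC2 over ATP5MC3) passed the threshold, and 0 complex II assembly factors were lower, as in DESeq2 without the block, with upper quartile scaling and, in a fit chosen after seeing the data, without both the block and bear 1509. DESeq2 with the replicate block called 1 gene higher among the 22, and so 1 in complex V. With each bear left out in turn, genes passing the DEG limits numbered 6 to 10 and in complex V 4 to 8, while 0 to 1 complex II factors and 1 to 3 complex IV factors were lower. With 5 bears the exact permutation test of the ratios cannot give less than p = 0.0625, so those fits say nothing about its stability. The cause of these changes was not tested.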
